A study of Mus musculus with 6 samples.

Results

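The 10 genes described here are the mouse inhibitors of the cyclin-dependent kinases together with the centre of the p53 and Rb pathways: Cdkn1a, Cdkn1b and Cdkn1c, Cdkn2a, Cdkn2b, Cdkn2c and Cdkn2d, and Trp53, Rb1 and Mdm2. They were chosen by name, out of 22359 coding genes, and each was given every called peak that overlapped its gene body or 10 kb on either side (mm9). The assay was ATAC-seq, in which the transposase Tn5 cuts and tags open chromatin, with 2 libraries from each of 3 mouse cell lines grown in the same serum medium and given no further treatment. Pax6-HIGH cells (β-TC3) came from a mouse insulinoma, Pax6-ON cells (MV+) from cultured lens epithelium of a wild-type C57BL6 mouse, and Pax6-OFF cells (RAG) from a renal adenocarcinoma of a BALB/c mouse. All 3 are established lines, so each condition is 1 line. The detergent at nuclei isolation also differed (NP40 at 0.2% for MV+ and 0.1% for the other lines), and this cannot be told apart from the line. The insulinoma line descends from mice that carry the SV40 large T antigen under an insulin promoter, and T antigen binds the p53 and Rb proteins.

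Cyclin-dependent kinases drive the cell cycle by phosphorylating Rb, which otherwise holds E2F transcription factors in check. The Cdkn1 proteins bind complexes of cyclins and kinases, while the Cdkn2 (INK4) proteins bind Cdk4 and Cdk6 themselves. p53, the product of Trp53, induces Cdkn1a and Mdm2 after DNA damage, Mdm2 marks p53 for degradation, and the Arf protein of the Cdkn2a locus blocks Mdm2. Loss of the Cdkn2a and Cdkn2b locus, or of p53, is common in cell lines that grow without limit.

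The following stretches of the mm9 reference carry the main contrasts at these genes, each printed 5′ to 3′ on the strand of the gene and outside annotated exons. The Arf promoter (chr4:88940558-88940677) was called in all 3 lines, and the Ink4a promoter of the same gene (chr4:88928097-88928216) only in Pax6-HIGH cells. The Cdkn1b promoter (chr6:134870274-134870393) held the highest pileup of all member peaks. The site upstream of Mdm2 (chr10:117154762-117154913) was called only in Pax6-OFF cells and held the member peaks' closest match to the p53 consensus. Capitals mark an E2F motif in the first and an AP-1 motif followed by the p53 match in the last.
Cdkn2a Arf promoter: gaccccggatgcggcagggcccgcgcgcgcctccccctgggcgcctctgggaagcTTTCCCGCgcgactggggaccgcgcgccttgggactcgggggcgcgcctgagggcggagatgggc
Cdkn2a Ink4a promoter: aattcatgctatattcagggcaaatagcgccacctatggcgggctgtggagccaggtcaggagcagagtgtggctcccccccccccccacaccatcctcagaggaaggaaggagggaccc
Cdkn1b promoter: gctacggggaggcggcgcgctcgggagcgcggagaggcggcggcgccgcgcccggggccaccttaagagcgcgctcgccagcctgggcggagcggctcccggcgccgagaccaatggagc
Mdm2 upstream site: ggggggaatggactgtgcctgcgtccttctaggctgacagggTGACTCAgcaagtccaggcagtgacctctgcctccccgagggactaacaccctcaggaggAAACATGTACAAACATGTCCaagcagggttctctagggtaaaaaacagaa

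The files held 1 pooled call per line, made from both replicates together, with 28024 peaks for Pax6-HIGH, 9821 for Pax6-ON and 14022 for Pax6-OFF (3 values without names follow this order throughout). The calls drew on 100254099, 130955836 and 102223606 fragments, so Pax6-ON cells had the most fragments and the fewest peaks. The lowest pileup (fragments over a peak's summit) of any peak was 25, 30 and 25. No value therefore has a replicate error, and no comparison between lines could be tested. Intervals below are exact Poisson 95% intervals of the pileup, which cover counting error only, since fragments copied by PCR are not independent molecules. Pileups were not scaled for depth, so peaks were compared by their percentile, the share of peaks of the same line with a pileup at or below their own. Marker promoters matched the line labels only in part. Of 8 beta cell markers 3 had a promoter peak in Pax6-HIGH cells (Neurod1, Nkx6-1 and Mafa), while Ins1, Ins2, Pdx1, Iapp and Slc2a2 had none. Of 7 annotated lens markers 3 had one in Pax6-ON cells (Pax6, Prox1 and Maf), but not Cryaa, Cryab, Foxe3 or Bfsp1. Of 8 kidney tubule markers 2 had one in Pax6-OFF cells (Pax2 and Cdh16), and none had one in the other lines. The markers did not separate the lines cleanly. Pax6, Prox1 and Maf were also called in Pax6-HIGH cells, at percentiles 95.1, 57.4 and 65.7 against 66.8, 2.14 and 15.0 in Pax6-ON cells. Nkx6-1 and Mafa were also called in Pax6-ON cells, Mafa and Maf in all 3 lines, and Cryab only in Pax6-OFF cells.

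Open chromatin was called at 9 of the 10 genes in the insulinoma line, 5 in the lens line and 9 in the renal line. Among all coding genes the shares with a peak in the body or its flanks were 61.6%, 30.6% and 48.9%. The same 9, 5 and 9 genes had a promoter peak, within 1000 bp of an annotated start, against 45.9%, 21.2% and 35.7% of coding genes. Cdkn1b, Cdkn2a, Cdkn2b, Cdkn2c and Cdkn2d had a promoter peak in all 3 lines, which 17.3% of coding genes had, and the share with any peak in all 3 was 24.5%. Cdkn1a, Trp53, Rb1 and Mdm2 had one in Pax6-HIGH and Pax6-OFF but not in Pax6-ON cells, a pattern of 15.4% of coding genes. Cdkn1c, like 50.0% of coding genes, had none in any line. Thus Cdkn1b and the 4 Cdkn2 genes had a promoter call in every line. At Cdkn2a the site called in all 3 lines was the Arf start, and the Ink4a start was called only in Pax6-HIGH cells. The 5 genes without a call in lens-derived cells were Cdkn1c, the p53 gene, its regulator Mdm2, its target Cdkn1a, and Rb1.

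The lines differ in how many peaks were called, so the comparison was repeated with the 9821 peaks of lowest q-value in each. Promoter peaks of Pax6-HIGH cells then stood at 6 genes (27.7% of coding genes) and those of Pax6-OFF cells at 6 (30.4%), beside the 5 of Pax6-ON cells. Pax6-HIGH cells lost the calls at Cdkn1a, Rb1 and Trp53, and Pax6-OFF cells those at Cdkn1a, Cdkn1b and Cdkn2d. Mdm2 was then the only one of the 4 genes with a call in both of these lines and none in Pax6-ON cells.

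**Figure D1:**
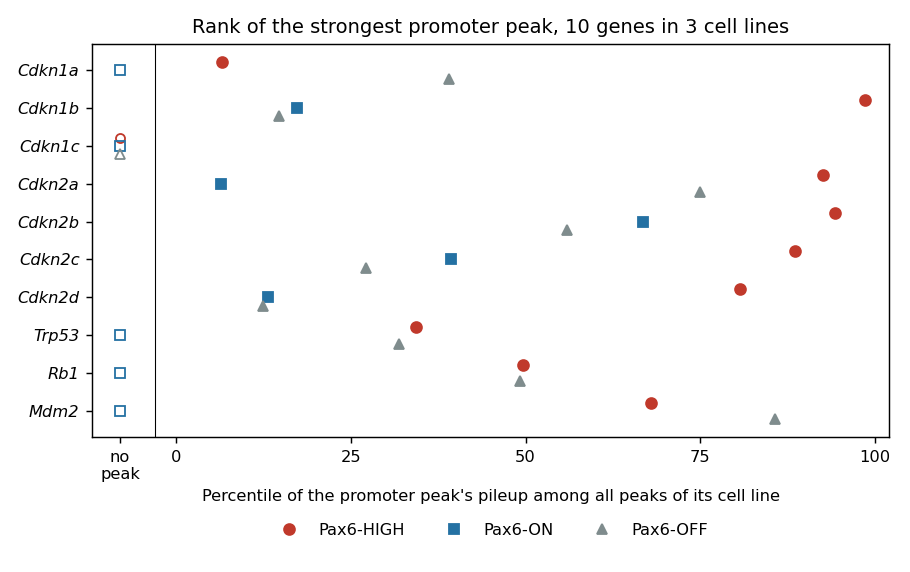
Percentile of the strongest promoter peak of each gene (horizontal axis, percent of the line's peaks with a pileup at or below it) for the 10 genes in rows, with 1 symbol per cell line and open symbols at the left where no promoter peak was called. Pax6-HIGH peaks at Cdkn1b and the 4 Cdkn2 genes lie between 80.7 and 98.5, while Pax6-ON has no peak at Cdkn1a, Cdkn1c, Trp53, Rb1 or Mdm2.

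Cdkn1a encodes p21, the kinase inhibitor that p53 induces. The gene (chr17:29227924-29237667, plus strand, ENSMUSG00000023067.7) had 2 peaks in Pax6-HIGH cells and 1 in Pax6-OFF cells, with no call in Pax6-ON cells. In Pax6-HIGH cells a weak peak of 30 fragments (95% interval 20.2 to 42.8) lay in an intron, 719 bp past the annotated start at 29230717, at percentile 6.54 (11.9 by fold enrichment and 1.59 among peaks at coding starts). In Pax6-OFF cells a peak of 44 fragments (32.0 to 59.1) lay 29 bp before that start, at percentile 39.0 (20.9 by fold enrichment and 24.8 by q-value, with a local background of 14.7 against the genome value of 10.9). These calls did not overlap, and neither reached the gene's 5′-most start, so both fell away when only the 5′ end was counted. Pax6-HIGH cells had a further peak of 2425 bp and 54 fragments (percentile 50.7) between genes, 16023 bp from the 5′ end, the longest of the 35 peaks at the 10 genes.

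The absence of a Cdkn1a call in Pax6-ON cells was shared by its surroundings. No peak was called from 27076695 to 30602280 on chromosome 17, 3.53 Mb that held 64 coding genes and formed the 33rd longest stretch without a peak in that line. Of these genes, 31 had a Pax6-HIGH promoter peak and 37 a Pax6-OFF one. The stretch held 45 peaks of each of these lines, 44 of them wholly inside, and 26 of these 44 Pax6-HIGH peaks overlapped a Pax6-OFF peak. Within 500 kb of Cdkn1a there were 15, 0 and 14 peaks, and 10.1% of coding genes had 0 in Pax6-ON cells. Of the 3 nearest coding genes on each side, Kctd20, Stk38 and Srsf3 had a promoter peak in Pax6-HIGH and Pax6-OFF cells, Ppil1 only in Pax6-OFF cells, and Rab44 and Cpne5 in no line. All 9 sites within 500 kb that Pax6-HIGH and Pax6-OFF cells shared were missing in Pax6-ON cells, while over the whole genome 49.0% of 9140 such sites were called there. Whether the stretch is deleted or closed in these cells was not tested, since the files list called peaks and not the reads between them.

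**Figure D2:**
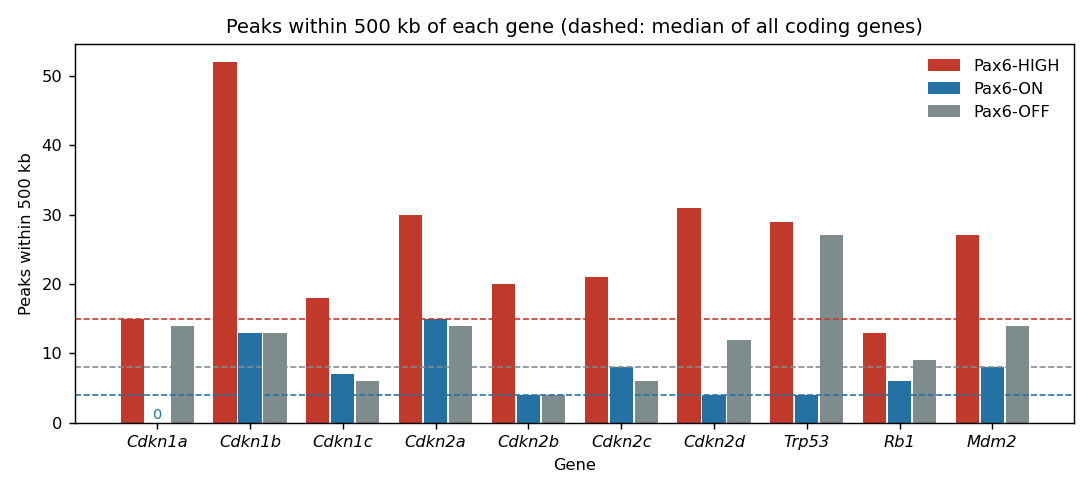
Number of called peaks within 500 kb of each gene (vertical axis) for the 10 genes and the 3 cell lines, with dashed lines at the median over all coding genes of 15, 4 and 8 for Pax6-HIGH, Pax6-ON and Pax6-OFF. Cdkn1a has 0 in Pax6-ON, and Cdkn1b has 52 in Pax6-HIGH.

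Cdkn1b encodes p27, which binds cyclin E and Cdk2 and holds cells in quiescence. The gene (chr6:134870419-134875531, plus strand) had the same 2 sites in all 3 lines, 1 at the promoter and 1 between genes downstream of it. At the promoter the pileups were 261 (230.0 to 295.0), 43 (31.1 to 57.9) and 34 fragments (23.5 to 47.5). These stood at percentiles 98.5, 17.3 and 14.8 (in Pax6-OFF cells 23.7 by fold enrichment and 8.26 among start peaks), so the promoter was among the strongest peaks of the insulinoma line and among the weakest of the other lines. At the downstream site, 8418 bp from the start in Pax6-HIGH cells, the pileups were 240, 33 and 59, at percentiles 98.1, 1.22 and 64.0. In Pax6-OFF cells the downstream site thus ranked above the promoter, and its peak was 878 bp long against 517 bp.

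The high pileup at Cdkn1b in Pax6-HIGH cells stood on a high local background. The background (fragments expected from the surrounding reads) was 41.0 at the promoter and 45.3 at the downstream site, 3.47 and 3.84 times the genome value of 11.8. Chromosome 6 as a whole held 4166 of the 28024 Pax6-HIGH peaks, with a median background of 15.6. Pax6-ON cells had 650 peaks on it and Pax6-OFF cells 674, with medians equal to their genome values of 14.2 and 10.9. Within 500 kb of the gene there were 52, 13 and 13 peaks, and 99.7% of coding genes had as many or fewer in Pax6-HIGH cells. Ranked by fold enrichment over that background, the promoter stood at percentile 87.5, and ranked by pileup among the peaks of chromosome 6 at 96.7. The part of the background in the rank of the pileup was not tested beyond these values.

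**Figure D3:**
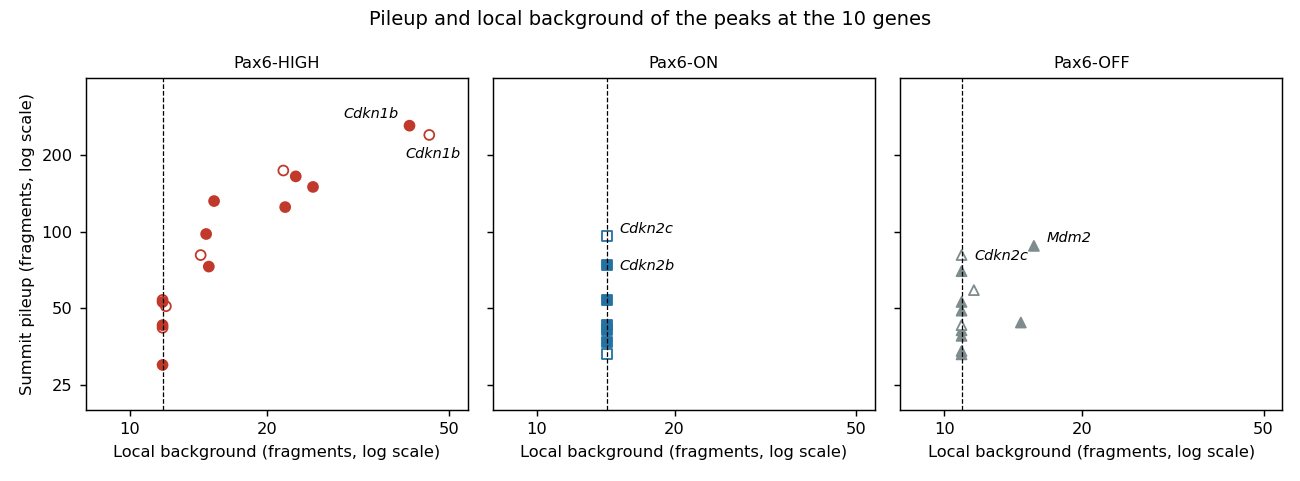
Summit pileup (vertical axis) against local background (horizontal axis) of the 16, 7 and 12 peaks at the 10 genes in the 3 cell lines. Both axes are in fragments on a log scale. Peaks at a promoter of their own gene are filled. A dashed line marks the genome background, and the 2 highest peaks of each line are named. The 2 Cdkn1b peaks of Pax6-HIGH lie at a background of 41.0 and 45.3, and all 7 Pax6-ON peaks lie on the genome value of 14.2.

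Cdkn1c encodes p57, an imprinted inhibitor that is expressed from the maternal copy. The gene (chr7:150644255-150646955, minus strand) had no peak in its body or flanks in any line. The stretch without a peak around it measured 119994, 252143 and 479164 bp, which ranked 4941st, 2702nd and 1292nd by length among the stretches of each line. On one side the adjacent genes Slc22a18 and Phlda2, which belong to the same imprinted domain, also had no peak in any line, whereas Nap1l4 beyond them had 2, 1 and 1. On the other side Kcnq1 had 3, 1 and 0 peaks, and Trpm5 and Tssc4 had 1 each in every line. Within 500 kb there were 18, 7 and 6 peaks, and 66.2%, 80.5% and 41.0% of coding genes had as many or fewer. The gap around Cdkn1c was therefore bounded by called peaks on both sides in each line and included Slc22a18 and Phlda2. A gene without a peak is not a gene without DNA, and its copy number was not tested.

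Cdkn2a encodes 2 unrelated proteins from alternative first exons: p16-Ink4a, an inhibitor of Cdk4 and Cdk6, and Arf, the inhibitor of Mdm2. The gene (chr4:88920377-88940557, minus strand) had the Arf promoter open in all 3 lines, with pileups of 150 (127.0 to 176.0), 37 (26.1 to 51.0) and 70 fragments (54.6 to 88.4). Their percentiles were 92.6, 6.38 (9.86 by fold enrichment) and 74.9, so the Pax6-ON peak was close to the weakest of its line. The Ink4a promoter, 12401 bp into the gene, was called only in Pax6-HIGH cells, with 132 fragments (110.0 to 157.0) at percentile 89.9. Its fold enrichment of 8.16 was the highest of the 35 peaks at the 10 genes, above 5.77 at the Arf promoter, and its background of 15.3 was lower than the 25.2 there. It ranked 2839th by pileup among the Pax6-HIGH peaks, a rank that does not carry over to another line. Both lines without this peak had a call at the Arf start of the same gene, in Pax6-ON cells with 37 fragments against a lowest pileup of 30. Why the Ink4a promoter was not called in these lines was not tested.

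Cdkn2b encodes p15-Ink4b, an INK4 inhibitor that TGF-β induces. The gene (chr4:88952198-88956941, minus strand) starts in the same region and had 1 site, in its first exon, in all 3 lines. The pileups were 165 (141.0 to 192.0), 74 (58.1 to 92.9) and 53 fragments (39.7 to 69.3), at percentiles 94.2, 66.8 and 55.9. It was the best ranked promoter of the 10 genes in Pax6-ON cells. Of the genes around the pair, Mtap had 2 peaks and Dmrta1 1 in Pax6-HIGH cells, and neither had any in Pax6-ON or Pax6-OFF cells.

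Cdkn2c encodes p18-Ink4c. The gene (chr4:109333481-109339794, minus strand) had 2 sites shared by all 3 lines and 1 seen only in Pax6-HIGH cells. At its promoter the pileups were 125, 54 and 39 fragments, at percentiles 88.5, 39.3 and 27.1 (17.5 among start peaks). The other shared site lay 9265 to 9303 bp upstream, beside the start of the divergent gene Faf1, with 174, 96 and 81 fragments at percentiles 95.0, 81.7 and 82.5. In each line this site ranked above the Cdkn2c promoter, and in Pax6-ON cells it was the strongest of the 7 peaks at the 10 genes. The Pax6-HIGH peak without a counterpart, 9471 bp from the 5′ end and past the 3′ end, in an exon of the lincRNA gene 9630013D21Rik, had 51 fragments at percentile 46.8.

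Cdkn2d encodes p19-Ink4d. The gene (chr9:21092907-21095653, minus strand) had a promoter peak in all 3 lines, with 98 (79.6 to 119.0), 41 (29.4 to 55.6) and 33 fragments (22.7 to 46.3). The percentiles were 80.7, 13.2 and 12.4 (in Pax6-OFF cells 20.8 by fold enrichment and 6.62 among start peaks), an order like that of Cdkn1b. A further peak of 42 fragments (percentile 32.6), called only in Pax6-HIGH cells, lay past the 3′ end near the start of Kri1. By the largest difference in percentile over the 3 lines, among 35 genes with a promoter peak in each, Cdkn1b and Cdkn2d were most like each other, at 17.8 points. Cdkn2b was most like E2f8, within 4.1 points, Cdkn2c most like Ccne2 (14.1) and Cdkn2a most like the p53 ubiquitin ligase gene Rchy1 (16.5).

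**Figure D4:**
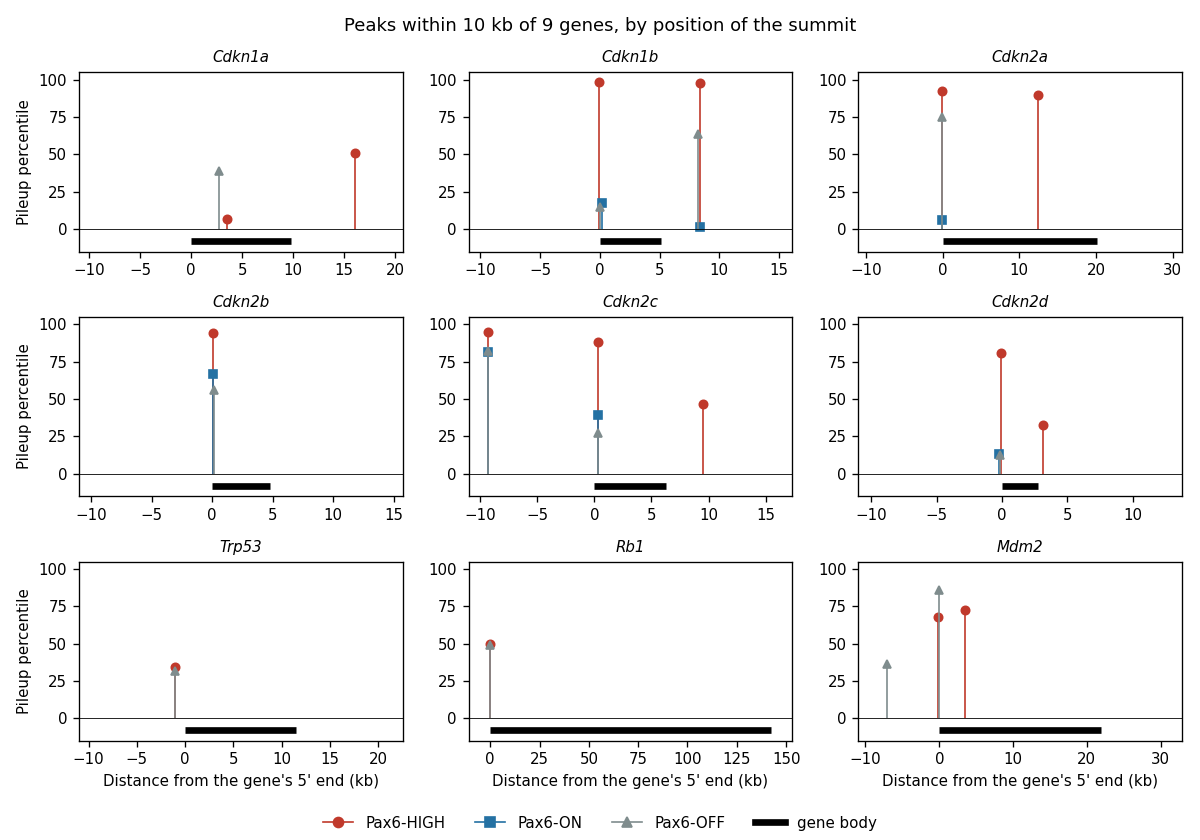
Position of every peak summit (horizontal axis, distance in kb from the gene's 5′ end along the gene, with the black bar as gene body) and pileup percentile in its line (vertical axis) for the 9 genes with a peak within 10 kb, coloured by cell line. Pax6-HIGH alone has the second Cdkn2a summit, 12401 bp from the 5′ end, and the Mdm2 summit at 3551 bp, and Pax6-OFF alone has the Mdm2 summit at -7069 bp.

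Trp53 encodes p53. The gene (chr11:69393861-69405375, plus strand) had a single site, whose pileup was 43 fragments (31.1 to 57.9) in Pax6-HIGH cells, at percentile 34.3 (15.4 among start peaks), and 41 (29.4 to 55.6) in the Pax6-OFF line, at percentile 31.9. Its summits lay 1054 and 1051 bp before the Trp53 start, in an exon of Wrap53, the divergent gene that begins 104 bp away. The site is thus a Trp53 promoter peak by distance only, and with a window of 500 bp no line had one. In Pax6-ON cells, in which no peak had fewer than 30 fragments, nothing was called from 68908701 to 69446132, a stretch of 537432 bp with 12 Pax6-HIGH and 11 Pax6-OFF peaks. Of 22 sites within 500 kb that these lines shared, 4 were called in Pax6-ON cells. Sat2, 30151 bp from Trp53, had a peak in every line.

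Rb1 encodes the retinoblastoma protein. The gene (chr14:73583480-73725629, minus strand) spans 142150 bp and had 1 site, at its promoter. The Pax6-HIGH peak had 53 fragments (39.7 to 69.3) and the Pax6-OFF peak 49 (36.3 to 64.8), with the same fold enrichment of 4.22 and percentiles of 49.6 (27.4 among start peaks) and 49.2. In Pax6-ON cells the stretch without a peak was 381364 bp long and held 6 Pax6-HIGH and 4 Pax6-OFF peaks. Of 8 sites within 500 kb that these lines shared, 4 were called in Pax6-ON cells, near the 49.0% of the whole genome. Its neighbour Itm2b had the same pattern as Rb1, while Fndc3a had a promoter peak in all 3 lines.

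Mdm2 encodes the ubiquitin ligase that marks p53 for degradation and is itself a p53 target. The gene (chr10:117125944-117147814, minus strand) had 2 peaks in the insulinoma line and 2 in the renal line, of which only the promoter site was shared. There the pileup was 73 fragments (57.2 to 91.8) at percentile 68.0 in Pax6-HIGH cells and 88 (70.6 to 108.0) at percentile 85.7 in Pax6-OFF cells. It was the best ranked promoter of the 10 genes in Pax6-OFF cells. A peak of 81 fragments (percentile 72.8) in an intron, 3551 bp past the start, was called only in Pax6-HIGH cells. A peak of 43 fragments (percentile 36.6) 7069 bp upstream was called only in Pax6-OFF cells.

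No Mdm2 peak was called in Pax6-ON cells over 162952 bp that held 6 Pax6-HIGH and 5 Pax6-OFF peaks. Unlike around Cdkn1a, neighbouring genes were called in that line. Cpm, whose gene body lies 1536 bp from that of Mdm2, had a promoter peak only in Pax6-ON cells. Nup107 and Rap1b had one in all 3 lines. The nearest Pax6-ON peaks lay 59369 and 81714 bp from the Mdm2 gene body. Of 9 sites within 500 kb shared by the other lines, 6 were called in Pax6-ON cells. The number of neighbours with a peak, out of 6, was 5, 3 and 4 at Mdm2, 4, 4 and 4 at Rb1, 3, 1 and 3 at Trp53, and 3, 0 and 4 at Cdkn1a.

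Merged across lines, the 35 peaks made 18 sites, of which 7 were called in 3 lines, 3 in 2 lines and 8 in 1 line. Over the whole genome 12.6% of 35588 merged sites were called in 3 lines, 18.4% in 2 and 69.0% in 1. These sets are unlike, since 11 of the 18 member sites lay at promoters and these genome shares were not computed for promoters alone. The same limit applies to the peak lengths and fold enrichments below. The 11 promoter sites comprised 5 called in 3 lines, 3 called in 2 lines and 3 called in 1 line. The 7 sites outside the 10 genes' own promoters comprised 2 called in 3 lines (downstream of Cdkn1b and beside Faf1) and 5 called in 1 line. Starts of other genes were not counted here. Faf1 had a promoter peak in all 3 lines and Kri1 in Pax6-HIGH cells, so sites beside their starts may be promoters of these neighbours. Of the 8 sites called in 1 line, 6 were from Pax6-HIGH and 2 from Pax6-OFF cells, beside 49.7% and 10.4% of all sites. No site was called in Pax6-ON cells alone or in Pax6-ON and only 1 other line. Over the genome these were few as well. They made up 8.95% (alone), 2.80% (with Pax6-HIGH) and 2.59% (with Pax6-OFF) of all merged sites. The median promoter percentile of the 9, 5 and 9 genes with a promoter peak was 80.7, 17.3 and 39.0. The Pax6-ON median thus rests on fewer genes than the other 2. For all peaks at coding starts the medians were 70.5, 55.3 and 60.0. Median peak length at the genes was 778, 382 and 502 bp, beside 542, 404 and 467 bp for all peaks. Median fold enrichment was 5.29, 2.90 and 3.96, beside 3.81, 3.89 and 3.88.

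Each peak's central 300 bp were searched on both strands for 3 motifs: the p53 consensus, the E2F motif (TTTCCCGC or TTTGGCGC) and the AP-1 motif (TGANTCA). A p53 match was 2 decamers, 0 to 13 bp apart, with intact cores and at most 3 mismatches. It was present in 1 of 16, 0 of 7 and 1 of 12 member peaks, beside 6.45%, 5.97% and 5.74% of all peaks. The match in the Pax6-HIGH peak past the end of Cdkn2d had 3 mismatches and a spacer of 13 bp, the loosest match allowed. The match upstream of Mdm2 in Pax6-OFF cells, AAACATGTACAAACATGTCC, had 1 mismatch and no spacer, and 0.593% of all peaks of that line held a match without spacer at the limit of 3 mismatches. It lay 6987 bp before the Mdm2 start, and an AP-1 motif stood in the same window. No match was found at the Cdkn1a peaks, which says only that these letters were not in these windows.

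E2F motifs were found in 2 of 16, 3 of 7 and 3 of 12 member peaks, beside 1.55%, 1.70% and 1.99% of all peaks. The 2 sets are unlike, since 11 of the 18 member sites were at promoters and no share was computed for peaks at coding starts alone. A motif at a site shared between lines counts once in each line. The Arf promoter, a known E2F1 target, held TTTCCCGC 61 bp before its start and within the window in all 3 lines. The site between Cdkn2c and Faf1 also held an E2F motif in all 3. The other matches, TTTCCCGC at Cdkn2d in the Pax6-ON window and at Rb1 in the Pax6-OFF window, were set by where each summit fell. The Cdkn2d motif (chr9:21096002-21096009) lay outside the Pax6-ON peak but inside the Pax6-HIGH and Pax6-OFF peaks, and the Rb1 motif (chr14:73725620-73725627) also lay inside the Pax6-HIGH peak. AP-1 motifs were in 1, 0 and 1 member peaks (the Cdkn1a intron in Pax6-HIGH cells and the Mdm2 upstream site in Pax6-OFF cells), beside 12.3%, 28.0% and 14.4% of all peaks. GC content of the windows reached 81.3% at the Rb1 promoter and was 77.3% at the Arf summit, 61.0% at the Ink4a promoter and 41.3% at the Mdm2 intron peak of Pax6-HIGH cells.

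The wider pathway was followed in 69 related genes. Promoter peaks were called at 57, 32 and 57 of them (82.6%, 46.4% and 82.6%), at 31 genes in all 3 lines and at 8 in none. For all coding genes these shares were 45.9%, 21.2% and 35.7%, with 17.3% in all 3 lines and 50.0% in none. The same shares are the base for each list below, so Pax6-ON cells had the fewest calls over all coding genes as well. With the 9821 peaks of lowest q-value in each line the counts were 38, 32 and 47, beside 27.7%, 21.2% and 30.4% of coding genes. The excess over Pax6-ON cells was thus smaller. The pattern of Cdkn1a, Trp53, Rb1 and Mdm2 (called in Pax6-HIGH and Pax6-OFF but not Pax6-ON cells) was shared by 22 of the 69, beside 15.4% of all coding genes. A single gene, the checkpoint kinase gene Chek1, was called in Pax6-ON but not in both other lines, with percentiles of 36.1 in Pax6-HIGH and 66.8 in Pax6-ON cells.

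Among 12 regulators of p53, 12, 6 and 11 had a promoter peak. The kinase gene Hipk2, the deubiquitinase gene Usp7 and the damage response gene Trp53bp1 were called in the insulinoma line (percentiles 87.5, 68.6 and 61.7) and in the renal line (27.1, 12.4 and 45.4). Among 22 p53 target genes the counts were 17, 10 and 19. Xpc and Ddb2, which recognise damaged DNA, stood at 94.3 and 76.0 in the insulinoma line and at 34.3 and 45.4 in the renal line, without a call in Pax6-ON cells. Trp53inp1 (90.8 and 39.0) and Btg2 (87.5 and 55.9) had the same pattern. Xpc and Hipk2 lie on chromosome 6, whose raised background in Pax6-HIGH cells is described at Cdkn1b. The target genes Phlda3 (36.6), Perp (58.5) and Pmaip1 (1.31), named after their values were seen, were called only in Pax6-OFF cells. Zmat3 (49.6), also named afterwards, was called only in Pax6-HIGH cells. The 10 target genes with a call in Pax6-ON cells were called in every line. Their Pax6-ON percentiles ran from 31.6 at Sesn1 to 96.0 at Ccng1, so the targets named above do not stand for the whole list. The p53 relatives Trp63 and Trp73 had no promoter peak in any line.

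Of 12 Rb and E2F family genes 11, 7 and 10 were called. Rbl1, which encodes the Rb relative p107, stood at 12.9 in Pax6-HIGH and 83.4 in the renal line, and Tfdp1, the E2F partner gene, at 81.4 and 19.6. E2f4 (44.1) and E2f6 (17.4), which encode repressor E2Fs, were called only in Pax6-HIGH cells, and E2f2 (14.8), named after its value was seen, only in Pax6-OFF cells. Of 11 cyclins and kinases 9, 5 and 9 were called. Those without a call in Pax6-ON cells but with one in both other lines were Ccne1 (90.1 and 68.7), Cdk1 (88.1 and 49.2), Ccnd3 (57.4 and 60.0) and Cdk6 (22.1 and 49.2), of which Cdk6 is a direct target of the INK4 proteins.

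Of 10 regulators of the inhibitor genes 8, 4 and 8 were called. The 4 called in all 3 lines, named after their values were seen, were Ezh2, Kdm2b, Myc and Dmtf1. Percentiles were 98.6, 60.6 and 74.9 at Ezh2 and 49.6, 13.2 and 49.2 at Kdm2b. Ezh2, like Xpc and Hipk2, lies on chromosome 6, whose raised background in Pax6-HIGH cells is described at Cdkn1b. Bmi1 and Cbx7, Polycomb genes known to repress Cdkn2a, had a promoter peak in Pax6-HIGH (74.5 and 17.4) and Pax6-OFF cells (29.5 and 31.9) but not in Pax6-ON cells. So did Id1 (69.8 and 24.5) and Men1 (58.3 and 39.0), whose product menin maintains Cdkn1b and Cdkn2c expression in endocrine cells.

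**Figure D5:**
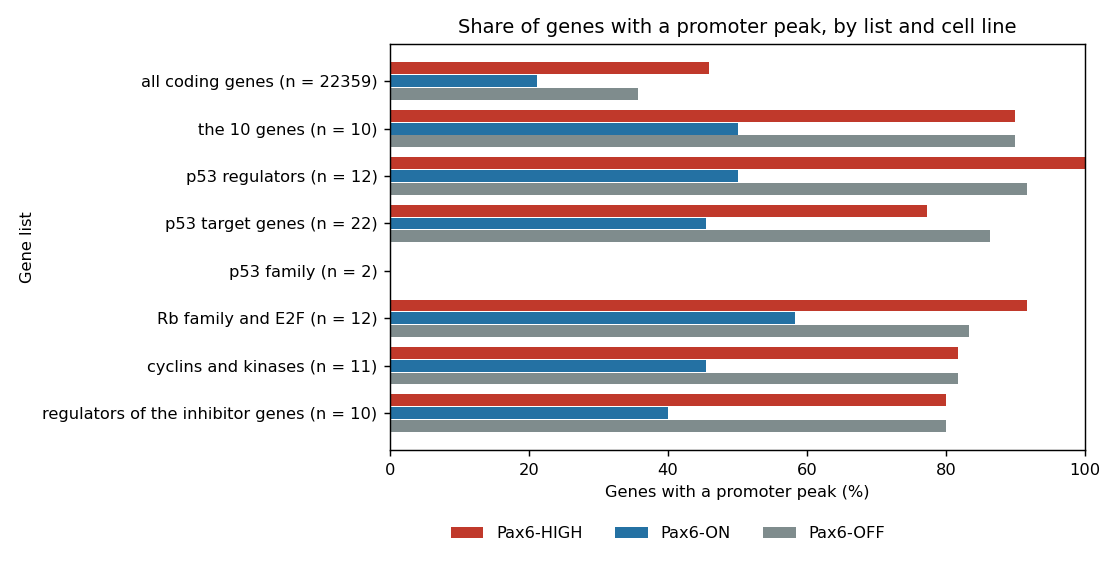
Percent of genes with a promoter peak (horizontal axis) in each cell line for all coding genes, the 10 genes and the 6 lists of related genes, with the number of genes in parentheses. All lists but the p53 family lie above the 45.9%, 21.2% and 35.7% of all coding genes in each line, and Pax6-ON has the smallest share in each of them.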

How the data were processed

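Each of 3 cell lines had 2 ATAC-seq libraries. The authors trimmed reads (Trim Galore 0.4.1), aligned them to mm9 (Bowtie2 2.2.6, SAMtools 1.6, bedtools) and ran MACS2 2.1.1 with a q-value threshold of 0.05; versions are from the submitters' processing notes. Per the file headers, 1 call per line pooled both replicates with no control library, kept all duplicates in its input, and took whole fragments without a Tn5 shift, which can widen peaks. The input names mention a Picard duplicate step, and whether duplicates were removed or only marked is unclear, so pileups may count PCR copies. The deposited pileup is a signal in fragments, not scaled for depth. Fold enrichment, as deposited, is a ratio of pileup to local background, each with a pseudocount of 1. The authors' p-values and q-values are deposited as −log10 values. Narrow peak files held the same intervals without pileups and were not used.

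Python 3.11.15 with pandas 2.3.3 read the peaks, and pysam 0.24.0 the sequences. Genes came from GENCODE M1 on NCBIM37 (mm9), and no peak lay past a chromosome end. Local background was computed as (pileup + 1)/fold − 1, and MACS2 raised it over the genome value from windows of up to 6250 bp. Percentiles, overlaps (at least 1 bp), stretches without peaks and motif matches were computed by code. Of these, the overlap search and the search for the p53 consensus were checked on simulated data. With 1 call per line no test was made. The 10 genes and all lists were chosen with earlier results of these data known. Besides the 10 genes, the text names the 3 nearest coding genes on each side of a gene without a promoter peak in some line, up to 4 genes per related list by highest percentile among those called in some lines, and the gene most like each gene called in all lines. Other neighbours (Mtap, Dmrta1, Faf1, Kri1) were named after their values were seen. The lens marker Sox1 was not in the annotation.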

Additional observations from a re-analysis of the deposited data

How the results depend on the processing

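Of 96 summary values under alternatives 68 stayed within 1.5 times the reported count or within the binomial interval of the reported percentage and 28 did not, with windows of 500 and 2000 bp, q-value limits of 0.01 and 0.001 and equal peak numbers among the alternatives. The median promoter percentile in Pax6-HIGH, 80.7, became 79.0 by fold enrichment, 84.1 by q-value, 87.2 within the chromosome and 65.1 among peaks at coding starts. In Pax6-ON, 17.3 became 21.8 by fold, 19.5 by q-value and 14.0 among start peaks, and in Pax6-OFF, 39.0 became 42.3, 38.1, 35.8 (chromosome) and 29.0 (start peaks). Counting the gene body alone left 3 genes with a peak in Pax6-ON in place of 5. Sites called in 1 line fell from 8 to 5 with equal peak numbers, and with an overlap of 50% of both peaks there were 6 sites in 2 lines and 4 in 3 lines. The share of coding genes with as few peaks as Cdkn1c was 46.5% within 250 kb, 45.8% within 1 Mb and 65.1% at a q-value of 0.001 in Pax6-HIGH, 81.1%, 64.6% and 81.4% in Pax6-ON, and 16.7% within 1 Mb and 42.5% at 0.001 in Pax6-OFF. In Pax6-HIGH, p53 matches went from 1 to 0 with at most 2 mismatches, to 0 with no spacer and to 2 over whole peaks, and E2F matches to 4 over whole peaks; AP-1 matches in Pax6-OFF went to 2. Of 92 single promoter percentiles 91 moved beyond their binomial interval, and 12, at 8 of 23 peaks, by over 1.5 times. Each percentile is a rank in a complete list of peaks, so the binomial interval does not measure its error. Causes were not tested. No paired analysis was possible because each line has 1 pooled call, and for the same reason no replicate could be left out. Genes just under the threshold, 30 fragments in Pax6-ON, cannot be told from closed ones.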
